A study of Mus musculus with 6 samples.

Results

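Antiviral interferon-stimulated genes encode the effector proteins that cells make when type I interferon reaches them. They were followed here in mouse bone marrow-derived macrophages (BMDMs) with and without zoledronic acid (ZA), a nitrogen-containing bisphosphonate given against bone resorption. The list of 39 genes was set by symbol, from the known antiviral effectors of the type I interferon response. It was chosen with earlier results of these data known. Of the 39 genes, 37 were analysed and all 37 passed the filter on low values, among 9800 genes tested in all. Mx1 and Mx2 were not analysed here.

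The study cultured marrow from the femurs of C57BL/6 mice with macrophage colony-stimulating factor (M-CSF) and sequenced bulk RNA from 3 Ctrl libraries and from 3 libraries taken 12 h after ZA stimulation. The labels name no other agent and no genotype that would set the groups apart. The ZA concentration used for these libraries is not given in the sources used here, and neither is whether the replicates of a group were separate mice or separate dishes, so p-values measure the spread between these libraries, which may be technical. Each library held between 41230600 and 42155808 fragments, and a single member took between 144 and 31830 of them in a library, which leaves a median counting error of 2.23% per value. Levels are given as FPKM, fragments scaled by the length of the transcript and by the total of the library. Macrophage markers were abundant in all 6 libraries, with a summed level of 11 markers between 28220 and 32890 FPKM.

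Type I interferons bind the receptor formed by Ifnar1 and Ifnar2, whose kinases Jak1 and Tyk2 activate transcription factors. Those that hold Irf9 bind the interferon-stimulated response element (ISRE) in the promoters of the antiviral genes. Macrophages keep a low interferon tone even without infection, so that many of these genes are transcribed at rest. Their products detect viral nucleic acid, degrade or sequester viral RNA, block entry and release of virus, and attract other immune cells.

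The promoters of these genes held the letters of the ISRE in a larger share than promoters at large. In the RefSeq promoter table (build GRCm38.p6, 250 bases before to 50 bases after the start), 29 of the 37 members had an entry. The letters GAAANNGAA, searched on both strands, stood in 17 of these 29 (58.6%) and in 9.76% of the promoters of 27025 genes, and at least 2 matches stood in 12 of the 29 (41.4%) and in 0.736% of all. The letters TTCNNNGAA, which approximate the gamma-activated sequence (GAS) and read the same on both strands, stood in 7 of the 29 (24.1%) and in 9.55% of all. A match is a description of the letters and not a measured binding site, and no match says only that these letters are not in this window. Among the members with an entry and no match to GAAANNGAA were Ifit2, Oasl2, Cmpk2, Herc6, Sp100, Xaf1 and Lgals3bp, whose levels are described below.

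Windows of 7 members were chosen for printing because they hold the matches of genes described with their levels in the next paragraphs. The sequences are those of the gene's own strand, 5′ to 3′, and the capitals mark the bases inside a match to GAAANNGAA or to its reverse complement TTCNNTTTC, where neighbouring matches can overlap. Ifit1 lies at chr19:34640768-34640825 on the plus strand, Ifit3 at chr19:34583362-34583447 on the plus strand, Isg15 at chr4:156200864-156200908 on the minus strand, Oas3 at chr5:120777708-120777746 on the minus strand, Oas1a at chr5:120907526-120907557 on the minus strand, Bst2 at chr8:71537576-71537614 on the minus strand and Rsad2 at chr12:26456551-26456583 on the minus strand. The window of Ifit3b holds the same 86 bases as that of Ifit3.
Ifit1: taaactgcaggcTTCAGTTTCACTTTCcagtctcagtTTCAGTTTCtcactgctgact
Ifit3: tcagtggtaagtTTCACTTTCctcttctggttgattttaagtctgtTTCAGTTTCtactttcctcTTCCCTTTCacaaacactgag
Isg15: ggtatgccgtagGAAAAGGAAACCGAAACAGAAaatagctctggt
Oas3: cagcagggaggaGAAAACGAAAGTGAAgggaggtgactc
Oas1a: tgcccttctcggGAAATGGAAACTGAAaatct
Bst2: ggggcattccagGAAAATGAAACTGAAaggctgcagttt
Rsad2: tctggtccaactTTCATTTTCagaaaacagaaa
Matches of Ifit1, Ifit3 and Isg15 numbered 3 each, those of Oas3, Oas1a and Bst2 numbered 2 each, and Rsad2 had 1.

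All 37 antiviral genes had a higher mean in the ZA group than in the Ctrl group, by small amounts, and not 1 of them passed the test. The log2 fold change (ZA minus Ctrl on log2(FPKM + 1)) was above 0 in 37 of 37 members, against 56.9% of all genes tested, with a median of 0.21 over the members and 0.010 over all genes tested. It ran from 0.09 for Cxcl10 to 0.48 for Ifit2. With limma and Benjamini-Hochberg adjustment over the 9800 genes, 0 of the 37 members had an adjusted p under 0.05 (0.204% of all genes tested passed it with ZA higher), and the adjusted p ran from 0.352 for Oas3 to 0.813 for Cxcl10. Oas3 alone, the synthetase for long double-stranded RNA, had an unadjusted p under 0.05 (7.5% of all genes tested with ZA higher), whereas limma-voom on the recovered fragments gave 16 such members (6.32% of all) and 0 with an adjusted p under 0.05. In 0 of the 37 members did all ZA libraries lie above all Ctrl libraries, which 11.4% of all genes tested did. Because the RNA came from whole cultures, more cells with a transcript and more transcript per cell cannot be told apart.

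**Figure D1:**
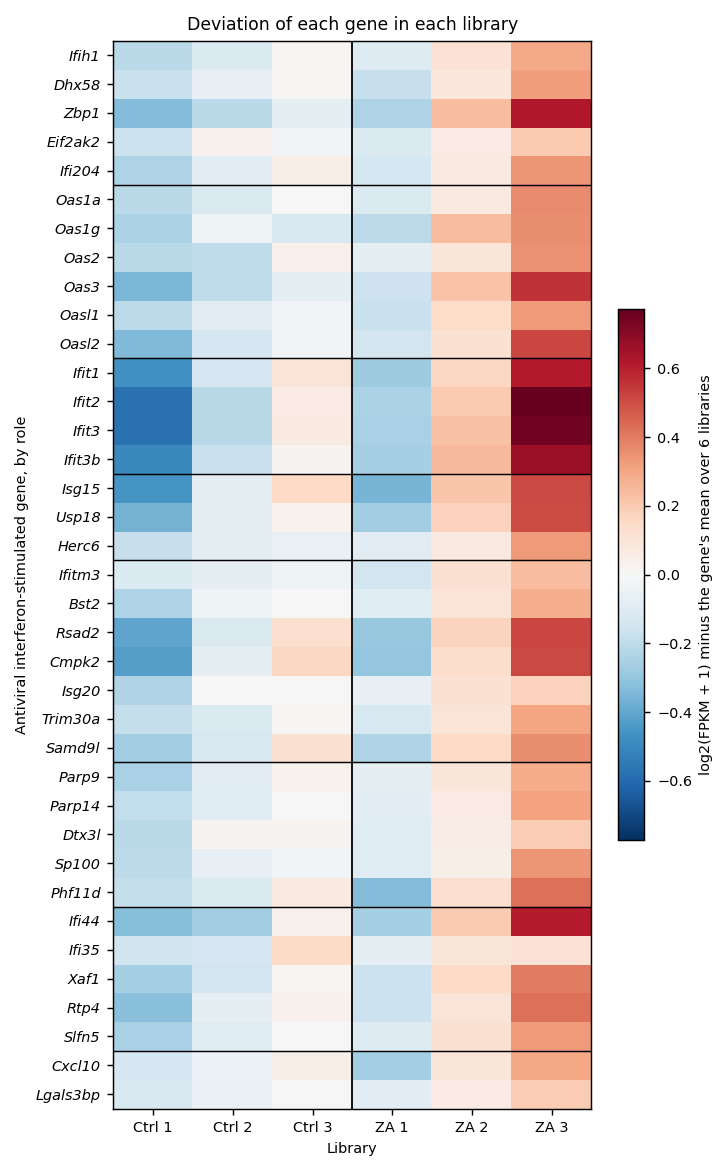
Deviation of log2(FPKM + 1) from each gene's mean over the 6 libraries, for 37 antiviral genes (rows, by role, lines between roles) in each library (columns, the vertical line separates Ctrl from ZA). Ctrl 1 and ZA 1 are below the mean (blue) and ZA 3 is above it (red) for nearly all genes, with the widest span for the IFIT genes.

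The IFIT proteins, which bind foreign or incompletely capped RNA and stop its translation, had the largest differences of all roles, with a median log2 fold change of 0.46 over 4 members. Ifit2 had 14.7, 19.2 and 23.5 FPKM in Ctrl 1, 2 and 3 and 18.8, 26 and 39 FPKM in ZA 1, 2 and 3. Ifit3 had 12.2, 15.9 and 19.7 FPKM in the Ctrl libraries and 15.5, 22 and 32 FPKM in the ZA libraries. In both genes ZA 2 and ZA 3 were above every Ctrl library, while ZA 1 was below Ctrl 2 and Ctrl 3, so the groups overlapped. The log2 fold change was 0.48 (SE 0.25) for Ifit2 and 0.48 (SE 0.24) for Ifit3, each with an adjusted p of 0.471 in limma with Benjamini-Hochberg adjustment. Ifit3b, which shares 16% of its 150-base stretches with Ifit3, had 2.87, 3.85 and 4.55 FPKM against 3.58, 5.49 and 7.66 FPKM in the same order (log2 fold change 0.44, SE 0.22). Ifit1, the cap-binding member, averaged 11.8 ± 2.47 FPKM in Ctrl and 15.4 ± 5.01 FPKM in ZA (SD, n = 3 each), with a log2 fold change of 0.33 (SE 0.21). Reads of Ifit3 and Ifit3b, and of Oas1a and Oas1g, can be split between the copies by the counting, so the values of a single copy are uncertain.

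The oligoadenylate synthetases make short oligoadenylates that activate RNase L, and their 6 members had a median log2 fold change of 0.26. Oas3 had 12.2, 13.7 and 15 FPKM in the Ctrl libraries and 14.1, 18.6 and 23.7 FPKM in the ZA libraries. Only ZA 1 overlapped with Ctrl, since it was below Ctrl 3, and the log2 fold change was 0.41 (SE 0.16, unadjusted p = 0.0307 in limma). Oasl2, an OAS-like protein with ubiquitin-like domains, had 26.3, 30.7 and 33.2 FPKM in Ctrl and 30.4, 36.6 and 48.5 FPKM in ZA, a log2 fold change of 0.33 (SE 0.15). Oas1g had 7.67, 9.01 and 8.42 FPKM in Ctrl and 7.94, 11.2 and 12.2 FPKM in ZA, a log2 fold change of 0.27 (SE 0.13). In Oasl2 and Oas1g alike ZA 1 was the second lowest of the 6 libraries and ZA 3 the highest. Oas1a, Oas2 and Oasl1, the last of which restrains translation of Irf7, had log2 fold changes of 0.22, 0.25 and 0.20. Oas1a and Oas1g share 32.4% and 24.1% of their 150-base stretches with each other.

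Among the sensors of viral nucleic acid the largest difference was that of Zbp1, which binds Z-form nucleic acid and can start necroptosis. Zbp1 had 9.08, 10 and 11.1 FPKM in Ctrl 1, 2 and 3 and 9.8, 14 and 18.6 FPKM in ZA 1, 2 and 3, a log2 fold change of 0.41 (SE 0.18). ZA 1 was below Ctrl 2 and Ctrl 3, and ZA 3 was 2.04 times Ctrl 1, the lowest library. Ifih1, which encodes MDA5, the sensor of long double-stranded RNA, had 7.21, 7.8 and 8.59 FPKM against 7.84, 9.26 and 10.6 FPKM (log2 fold change 0.20, SE 0.10). Ifi204, a DNA sensor of the AIM2-like family that shares stretches with Ifi211, had 44.9, 50.3 and 55.2 FPKM against 48.3, 56 and 67.6 FPKM (log2 fold change 0.18, SE 0.12). Dhx58, which encodes LGP2, and Eif2ak2, which encodes the kinase PKR, had log2 fold changes of 0.15 (SE 0.11) and 0.10 (SE 0.08). For all 5 sensors the highest library was ZA 3, and the adjusted p lay between 0.413 and 0.636 (limma with Benjamini-Hochberg adjustment).

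Isg15, a ubiquitin-like protein that is attached to other proteins, varied more within the groups than between them. Its level was 21.3, 28.1 and 33 FPKM in Ctrl 1, 2 and 3 and 22.8, 34.4 and 42.4 FPKM in ZA 1, 2 and 3. The log2 range among the Ctrl libraries was 0.61 and the log2 fold change was 0.24 (SE 0.22). Usp18, the protease that removes ISG15 and also dampens the interferon receptor, had 7.78, 9.72 and 10.5 FPKM against 8.38, 11.8 and 15.1 FPKM (log2 fold change 0.28, SE 0.18). Herc6, the main ISG15 ligase of the mouse, had 6.27, 6.81 and 6.92 FPKM against 6.78, 7.63 and 9.35 FPKM (log2 fold change 0.21, SE 0.09), and its range among the Ctrl libraries was narrower, at 0.12. ZA 1 of all 3 genes was below Ctrl 2 and Ctrl 3.

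**Figure D2:**
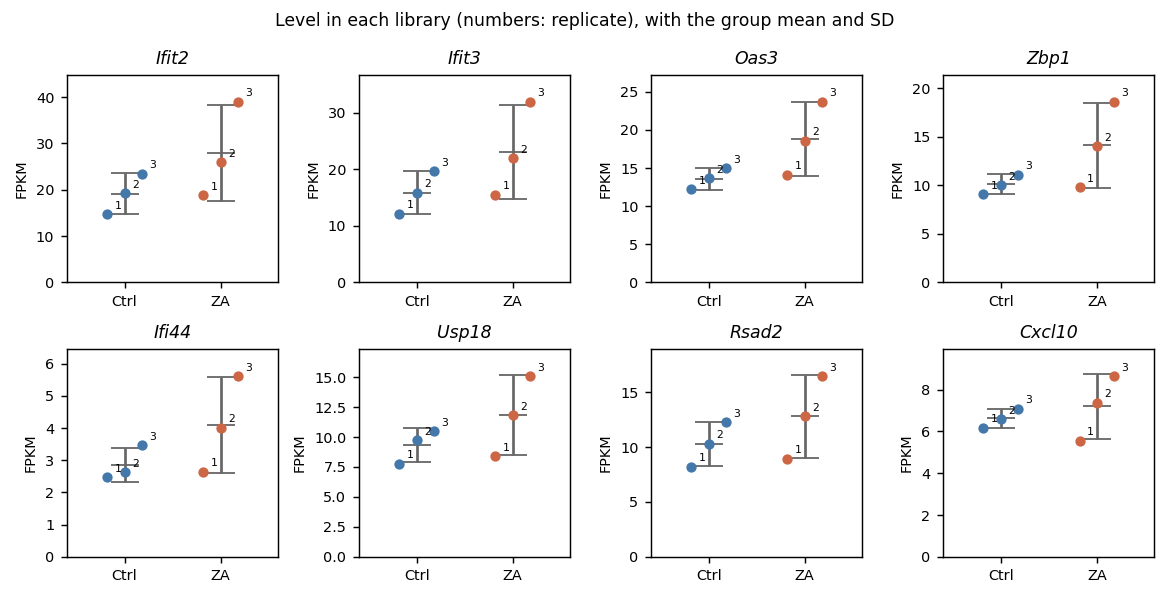
FPKM of 8 antiviral genes in each library (points, numbered by replicate, Ctrl in blue and ZA in orange) with the group mean and SD (bars, n = 3 libraries each, axes start at 0). In every panel ZA 1 lies among or below the Ctrl libraries and ZA 3 lies above all of them, as for Ifit2 with 18.8 FPKM in ZA 1 and 39 FPKM in ZA 3.

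The proteins that block entry, replication and release of virus spanned the widest range of levels, from Isg20, an exonuclease of RNA, at 1.13 FPKM to Ifitm3, which blocks fusion in endosomes, at 674 FPKM over the 6 libraries. Rsad2, which encodes viperin, had 8.22, 10.3 and 12.3 FPKM in Ctrl and 8.96, 12.8 and 16.5 FPKM in ZA, a log2 fold change of 0.26 (SE 0.20). Its neighbour on chromosome 12, Cmpk2, a mitochondrial nucleotide kinase, had 8.68, 11.3 and 13.5 FPKM against 9.58, 13.3 and 17.5 FPKM (log2 fold change 0.23, SE 0.20). In both genes Ctrl 3 exceeded ZA 1, and the log2 range among the Ctrl libraries, 0.53 and 0.59, was above the fold change. Bst2, which encodes tetherin and holds budding virus at the cell surface, had 195.9, 225.4 and 230.9 FPKM against 216.8, 248.3 and 282.1 FPKM (log2 fold change 0.19, SE 0.09). Ifitm3 averaged 637 ± 14.2 FPKM in Ctrl and 710 ± 93.5 FPKM in ZA (SD, n = 3 each), with ZA 1 the lowest of all 6 libraries at 608.6 FPKM. Isg20, Trim30a and Samd9l, a restrictor of translation, had log2 fold changes of 0.15, 0.19 and 0.19.

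The ADP-ribosylation and nuclear body proteins had a median log2 fold change of 0.19 over 5 members. Parp9, which works in a complex with the ubiquitin ligase Dtx3l, had 16.9, 19.1 and 20.7 FPKM in Ctrl and 19.1, 21.6 and 24.9 FPKM in ZA (log2 fold change 0.20, SE 0.10). Sp100, a component of nuclear bodies, had 20.5, 22.6 and 23.3 FPKM against 22.1, 24.5 and 30.3 FPKM (log2 fold change 0.19, SE 0.10). Parp14, a mono-ADP-ribosyltransferase, had 25.1, 26.9 and 28.9 FPKM against 27.1, 30.2 and 35.9 FPKM (log2 fold change 0.19, SE 0.09). In these genes ZA 2 and ZA 3 were above every Ctrl library and ZA 1 was not. Dtx3l, whose exons overlap those of Parp9 on the opposite strand, had a log2 fold change of 0.11 (SE 0.09). Phf11d, a PHD finger protein, had 0.14 (SE 0.17) and was lowest in ZA 1.

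Of the other induced proteins Ifi44 had the largest difference, with 2.47, 2.62 and 3.46 FPKM in Ctrl and 2.65, 4.01 and 5.62 FPKM in ZA (log2 fold change 0.37, SE 0.19). Xaf1, a binding partner of the apoptosis inhibitor XIAP, had 2.5, 2.78 and 3.23 FPKM against 2.73, 3.66 and 4.52 FPKM (log2 fold change 0.26, SE 0.13). Rtp4 had 20.5, 24.6 and 26.5 FPKM against 23, 27.8 and 35.1 FPKM (log2 fold change 0.24, SE 0.14). In all 3 genes ZA 1 was below Ctrl 3 and the groups overlapped. Slfn5, a Schlafen protein, had a log2 fold change of 0.23 (SE 0.10), and Ifi35 one of 0.09 (SE 0.08), with Ctrl 3 its highest library at 22.9 FPKM. Of the secreted members, Cxcl10, the ligand of the chemokine receptor CXCR3, had 6.19, 6.6 and 7.09 FPKM against 5.55, 7.38 and 8.66 FPKM (log2 fold change 0.09, SE 0.12). Lgals3bp, a secreted glycoprotein that binds galectin-3, had 263.6, 274.8 and 285.6 FPKM against 270.6, 299.9 and 328.4 FPKM (log2 fold change 0.12, SE 0.06). Cxcl10 was lowest in ZA 1, and ZA 1 of Lgals3bp lay between Ctrl 1 and Ctrl 2.

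**Figure D3:**
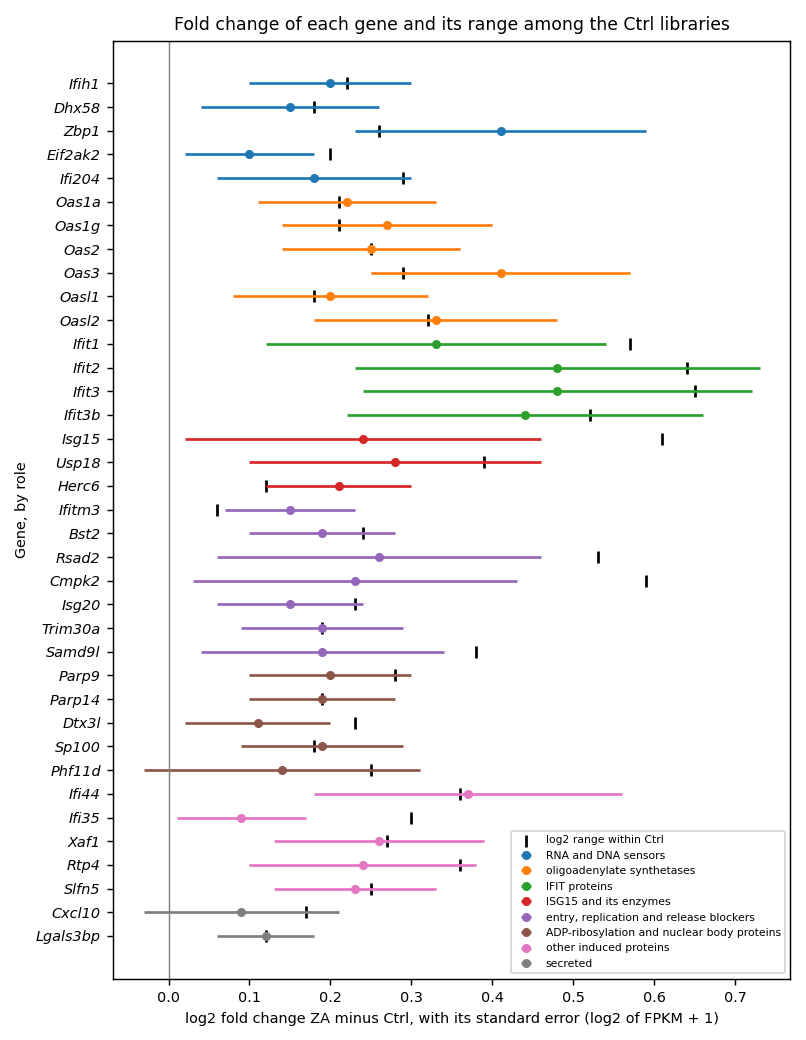
Log2 fold change (ZA minus Ctrl, on log2(FPKM + 1)) of each antiviral gene with its standard error from limma (points and bars, coloured by role), beside the log2 range among the 3 Ctrl libraries (black ticks). All points are above 0, and the Ctrl range exceeded the fold change in 26 of 37 genes (70.3%, against 76.7% of all genes tested).

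The members moved together between libraries, and the libraries of 1 group were not alike. Ctrl 1 was the lowest Ctrl library in 37 of 37 members (33.9% of all genes tested) and ZA 1 the lowest ZA library in 37 of 37 (33.6% of all). ZA 3 was the highest ZA library in 37 of 37 members (33.3% of all), and Ctrl 3 the highest Ctrl library in 35 (33.7% of all). Over all 6 libraries the lowest was Ctrl 1 for 33 members and ZA 1 for Ifitm3, Dhx58, Phf11d and Cxcl10, and the highest was ZA 3 for 36 members and Ctrl 3 for Ifi35. A single order, with Ctrl 1 lowest and then ZA 1, Ctrl 2, Ctrl 3, ZA 2 and ZA 3, held for 22 of the 37. The mean of log2(FPKM + 1) over the members, taken from its own mean over the 6 libraries, was -0.28, -0.10 and 0.02 in Ctrl 1, 2 and 3 and -0.17, 0.13 and 0.40 in ZA 1, 2 and 3, whereas the mean level over all genes tested stayed between 3.57 and 3.59. Their share of all fragments was 0.294%, 0.322% and 0.346% in the Ctrl libraries and 0.313%, 0.371% and 0.438% in the ZA libraries.

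Within a group the members varied more than genes at large. Their median log2 range was 0.25 among the Ctrl libraries (0.085 over all genes tested) and 0.50 among the ZA libraries (0.089 over all). The range among the ZA libraries was above that among the Ctrl libraries in 36 of 37 members and in 52.7% of all genes tested. Ifit3 had the widest range among the Ctrl libraries, 0.65, and Ifit2 the widest among the ZA libraries, 1.02. Ifitm3 had the narrowest range in Ctrl, 0.06, and Ifi35 the narrowest in ZA, 0.18. The level in Ctrl 3 was a median of 1.23 times that in Ctrl 1, and the level in ZA 3 a median of 1.53 times that in ZA 1, while these medians over all genes tested were 0.999 and 0.997. In 26 members (70.3%, against 76.7% of all genes tested) the range among untreated libraries was wider than the log2 fold change.

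The difference between the groups depended on which libraries were set side by side. Between ZA 1 and Ctrl 1, 33 of 37 members were higher in ZA, with a median log2 difference of 0.10, from -0.15 for Phf11d to 0.33 for Ifit2. Between ZA 2 and Ctrl 2 all 37 were higher, with a median of 0.22, from 0.03 for Eif2ak2 to 0.47 for Ifi44. Between ZA 3 and Ctrl 3, 36 were higher, with a median of 0.35, from -0.03 for Ifi35 to 0.71 for Ifit2. Of all genes tested between 54.1% and 55% were higher in ZA in these pairs. In 32 of 37 members ZA was higher in all 3 pairs of equal number (22.4% of all genes tested), the exceptions being Dhx58, Ifitm3, Phf11d, Cxcl10 and Ifi35. The labels do not say that libraries of equal number share a culture. Across numbers, ZA 1 was below Ctrl 3 in 37 of 37 members (43.9% of all) and below Ctrl 2 in 29 (43.2% of all), and ZA 2 and ZA 3 were both above every Ctrl library in 35 (19.1% of all), the exceptions being Ifi35 and Cmpk2.

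Single libraries decided how many members had an unadjusted p under 0.05 in limma. Without ZA 1 there were 35 (8.65% of all genes tested with ZA higher), with 35 members whose groups did not overlap (19.1% of all) and a median log2 fold change of 0.34, and the lowest adjusted p was 0.0518, for Oas1g and Ifitm3. Without Ctrl 3 there were 9 (7.1% of all), with 8 members whose groups did not overlap (17.7% of all), and without Ctrl 1, Ctrl 2, ZA 2 or ZA 3 there were 0. The median log2 fold change was 0.14 without Ctrl 1 and 0.09 without ZA 3, where Phf11d and Cxcl10 turned to -0.03 and -0.04. In none of these fits did a member reach an adjusted p under 0.05.

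The interferons themselves were at or near 0. Of 20 genes for type I and type III interferons, 18 were listed at 0 in every library, Ifnb1 had 0.0289 FPKM in ZA 2, which is 1 fragment, and 0 in the other libraries, and Ifnz had at most 0.0657 FPKM, or 4 fragments, in Ctrl 1. The gene of interferon gamma, Ifng, had 0.0196 FPKM in ZA 3, also 1 fragment, and 0 in the others. A count of 0 allows up to 3 fragments in a library, so Ifnb1 and Ifng stayed below the smallest amount taken as detectable. The receptor subunits were present. Ifnar1 averaged 23.8 ± 0.33 FPKM in Ctrl and 25.3 ± 0.272 FPKM in ZA (SD, n = 3 each), with all ZA libraries above all Ctrl libraries and a log2 fold change of 0.09 (SE 0.03, adjusted p = 0.248 in limma with Benjamini-Hochberg adjustment). Ifnar2 had 26.4 ± 0.201 and 26.5 ± 0.393 FPKM, Ifngr1 103 ± 1.24 and 109 ± 2.82 FPKM, and Ifngr2 89 ± 1.04 and 90.9 ± 2.23 FPKM. Ifnlr1, the subunit particular to interferon lambda, had at most 0.00564 FPKM. These levels did not follow the library order of the antiviral genes, as Ifnar2 was lowest in ZA 3.

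Of the factors that carry the signal, Irf7, Stat2, Irf9 and Irf1 had Ctrl 1 as their lowest and ZA 3 as their highest library, like most antiviral genes. Others did not have both, as Jak1 was highest in Ctrl 1 and Irf3 and Tyk2 were lowest in Ctrl 3. Irf7, which amplifies the response, had 29.2, 34.7 and 38.8 FPKM in Ctrl 1, 2 and 3 and 35, 46.7 and 58.3 FPKM in ZA 1, 2 and 3, a log2 fold change of 0.42 (SE 0.17). Stat2 had 19.5, 21.8 and 22.6 FPKM against 22.1, 25 and 30.6 FPKM (log2 fold change 0.26, SE 0.11). In both genes ZA 1 lay below Ctrl 3. Irf9 differed in that its groups did not overlap, with 23, 23.8 and 24.6 FPKM against 25.7, 25.3 and 27.2 FPKM (log2 fold change 0.13, SE 0.04, adjusted p = 0.248 in limma with Benjamini-Hochberg adjustment). Irf1 had a log2 fold change of 0.13 (SE 0.05). Over the 11 JAK-STAT and IRF factors tested, 11 had a log2 fold change above 0 (56.9% of all genes tested), 4 had an unadjusted p under 0.05 with ZA higher (7.5% of all), 0 passed the adjusted threshold, and the median was 0.08.

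**Figure D4:**
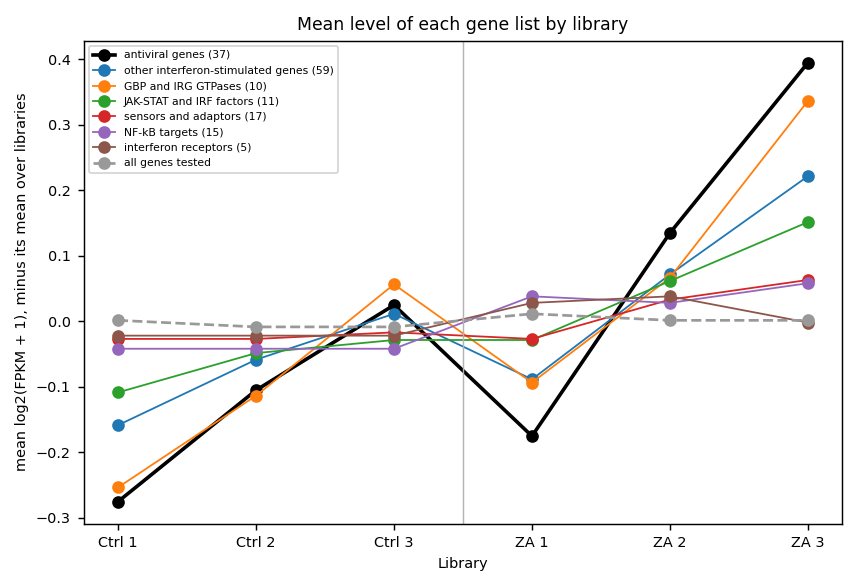
Mean of log2(FPKM + 1) over the tested genes of each list in each library, minus the mean of that list over the 6 libraries (number of genes in brackets, lines only join the points of a list). The antiviral genes span -0.28 in Ctrl 1 to 0.40 in ZA 3, further than any other list drawn, and all genes tested stay close to 0.

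Other lists of the pathway gave smaller medians, and in not 1 of them did a gene pass the adjusted threshold in limma. Of 59 other interferon-stimulated genes tested, 54 had a log2 fold change above 0 (56.9% of all genes tested), 18 had an unadjusted p under 0.05 with ZA higher (7.5% of all) and 0 with ZA lower (4.85% of all), and the median was 0.13. Those with the largest statistic were Oas1c, with 2.01 ± 0.0377 FPKM in Ctrl and 2.64 ± 0.202 FPKM in ZA (log2 fold change 0.27, SE 0.05, adjusted p = 0.0938 with Benjamini-Hochberg adjustment), Ifi27l2a (0.38, SE 0.11) and Trafd1 (0.10, SE 0.03). In these 3 genes the groups did not overlap. All ZA libraries lay above all Ctrl libraries in 12 of the 59 genes (11.4% of all genes tested). In 1, Ly6c2, all lay below (log2 fold change -0.16, SE 0.07), a direction whose share of all genes is not given here. The mean of log2(FPKM + 1) over the 59 genes rose from 3.83 in Ctrl 1 to 4.21 in ZA 3. Its libraries had the order most frequent among the antiviral genes, with ZA 1 (3.90) below Ctrl 2 (3.93). The GBP and IRG GTPases, which attack vacuoles of intracellular pathogens, had 10 of 10 genes above 0 with a median of 0.19 and 3 with an unadjusted p under 0.05, beside the same 56.9% and 7.5% of all genes tested, and they were led by Tgtp2 (0.35, SE 0.12), Irgm2 (0.27, SE 0.11) and Gbp7 (0.29, SE 0.12). The mean over these 10 GTPases was 2.61, 2.75 and 2.92 in Ctrl 1, 2 and 3 and 2.77, 2.93 and 3.20 in ZA 1, 2 and 3. It was thus lowest in Ctrl 1 and highest in ZA 3, like most antiviral genes. Of 17 sensors and adaptors upstream of interferon, 15 were above 0 with a median of 0.05, and 2 had an unadjusted p under 0.05, beside 56.9% and 7.5% of all genes tested. These were Tlr9 (0.13, SE 0.04) and the kinase Ikbke (0.09, SE 0.03). The ubiquitin ligase Trim25, next in that list by its statistic, had 0.06 (SE 0.03).

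Inhibitors of the pathway had 9 of 12 tested genes above 0, with a median of 0.05 and 2 with an unadjusted p under 0.05 in limma, beside 56.9% and 7.5% of all genes tested. The phosphatase gene Ptpn6 had 151 ± 2.46 FPKM in Ctrl and 162 ± 6.63 FPKM in ZA (log2 fold change 0.11, SE 0.03), Socs1, a feedback inhibitor of JAK kinases, had a log2 fold change of 0.25 (SE 0.10), and Adar, which edits double-stranded RNA, had 0.12 (SE 0.05). Trex1, the cytosolic DNA exonuclease, was listed at 0 in every library. Whether the counting could assign reads to Trex1 is not given in the sources used here. Of the NF-kB targets, 13 of 15 tested were above 0 (56.9% of all genes tested) with a median of 0.09, and 6 had an unadjusted p under 0.05 with ZA higher (7.5% of all). In 6 of the 15 all ZA libraries lay above all Ctrl libraries (11.4% of all). In 1, Cd83, all lay below (log2 fold change -0.03, SE 0.02), a direction whose share of all genes is not given here. Nfkbie and Birc3 led them, with 8.61 ± 0.273 and 13.1 ± 0.155 FPKM in Ctrl and 10.2 ± 0.128 and 14.7 ± 0.316 FPKM in ZA (SD, n = 3 each, log2 fold changes 0.22 and 0.15, SE 0.03 each), followed by Nfkbia (0.09, SE 0.03). The groups of these 3 NF-kB targets did not overlap, and their libraries did not follow the order of the antiviral genes, as Birc3 was higher in ZA 1 than in ZA 3.

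Markers of other cells in marrow cultures moved across the libraries as well. Stromal markers (4 of 5 tested, Col1a1, Col1a2, Col3a1 and Dcn) summed to 31.7, 24.7 and 17.9 FPKM in Ctrl 1, 2 and 3 and 23.1, 20 and 16.2 FPKM in ZA 1, 2 and 3, so that they were highest in Ctrl 1 and lowest in ZA 3, where the antiviral genes were lowest and highest. Markers of neutrophils and progenitors (6 of 11 tested, Ly6g at 0) summed to 50.9, 40.4 and 35.6 FPKM in Ctrl and 33.8, 37.1 and 31.5 FPKM in ZA, and Elane, Mpo, Prtn3 and Ngp had an unadjusted p under 0.05 with ZA lower (4.85% of all genes tested). The 11 macrophage markers had a median log2 fold change of 0.04, with 3 at an unadjusted p under 0.05 (7.5% of all genes tested with ZA higher) and 4 whose ZA libraries all lay above the Ctrl libraries (11.4% of all), among them Csf1r and Adgre1 with log2 fold changes of 0.11 (SE 0.02) and 0.13 (SE 0.02). Markers of plasmacytoid dendritic cells, the main producers of type I interferon, summed to between 3.89 and 4.86 FPKM, of which Tcf4 made most, and Siglech was at or below 0.326 FPKM. Markers of conventional dendritic cells summed to between 3.9 and 4.79 FPKM, those of B cells to between 2.07 and 3.04 FPKM, those of T and NK cells to between 0.429 and 0.666 FPKM, and those of erythroid cells to between 0.423 and 2.67 FPKM. The 11 macrophage markers summed to 28220, 30370 and 32240 FPKM in Ctrl 1, 2 and 3 and to 29210, 30980 and 32890 FPKM in ZA 1, 2 and 3. Their sum was lowest in Ctrl 1 and highest in ZA 3, like most antiviral genes, but a sum is carried by its most abundant genes. The mean of log2(FPKM + 1) over these 11 markers moved little. It was 9.09, 9.10 and 9.13 in Ctrl 1, 2 and 3 and 9.13, 9.17 and 9.20 in ZA 1, 2 and 3. By that mean ZA 1 was above Ctrl 2, unlike in most antiviral genes. The part of stromal cells, neutrophils and macrophages in the differences between libraries was not tested.

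**Figure D5:**
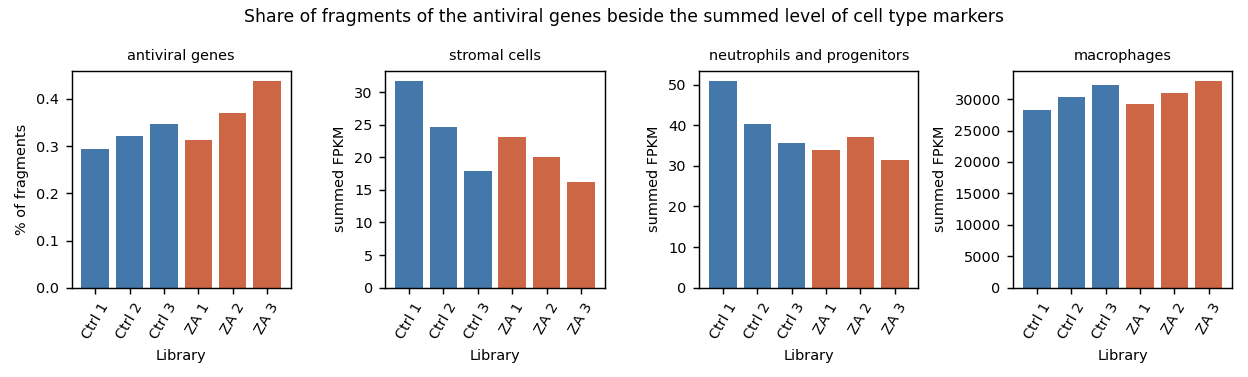
Share of all fragments taken by the 37 antiviral genes (left, in percent) and summed FPKM of the markers of stromal cells, of neutrophils and progenitors, and of macrophages in each library (bars from 0, Ctrl in blue, ZA in orange). ZA 3 has the highest share of antiviral transcripts, 0.438%, and the lowest sums of stromal and neutrophil markers, 16.2 and 31.5 FPKM.

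Some members share sequence or exons with other genes, which limits the values of single genes. In the annotated transcripts 11 of 37 members held 150-base stretches that also occur in another gene, among them Herc6 (8.69% of its stretches), Rtp4 (6.92%), Ifi204 (6.77%), Trim30a (3.24%) and Phf11d (2.65%). Exons of 4 members, Herc6, Parp14, Rtp4 and Sp100, overlap another gene on the same strand, where strand cannot tell the reads apart. Exons of 9 members overlap a gene on the opposite strand, and whether the counting used strand is not given in the sources used here. For Cxcl10 the overlapping gene is Art3, with at most 0.0102 FPKM. For Eif2ak2 it includes Gm26637, with between 0.886 and 1.1 FPKM against at least 11.5 FPKM of Eif2ak2. Dtx3l and Parp9 overlap each other, and with 2.68 and 18.9 FPKM in Ctrl their reads can be told apart where they overlap only if the counting used strand.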

How the data were processed

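RNA from 6 BMDM libraries, 3 Ctrl and 3 ZA, was compared, grouped by the labels. The values that the authors deposited are FPKM, a single number for a gene in a library, without scaling between libraries. In nearly all rows the symbol and the values run together (unit entered as other). The submitters' processing notes name mm9, and the aligner and counter are not given in the sources used here. The labels name a VAHTS kit and also a SMARTER kit. Columns of other samples numbered 0.

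The number format alone fixed where a row had to be separated in 20855 rows, of which 16054 were 0 in every library. In 14465 rows the separation chosen was the one that made all 6 values whole numbers of fragments at 1 gene length (20 to 250000 bases), ahead of the next by 3 powers of 10. Of 35434 rows, 35320 were restored (99.7% of the fragments), the 11 intact rows identically, and 114 were left out. On simulated data 2999 of 3000 rows were restored exactly, 0 wrongly.

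log2(FPKM + 1) was fitted with limma 3.58.1 in R 4.3.3 (lmFit, eBayes with a trend, group only, two-sided, Benjamini-Hochberg) for the 9800 genes whose mean FPKM reached 1, with a median of 1395 fragments. A fold change on this scale understates that of low genes. On simulated data 200 of 200 genes changed 2-fold were called among 9800, with 214 calls. Without a changed gene 0 were called. The log2 fold changes of the members, 0.09 to 0.48, were smaller than 2-fold. The members also moved together between libraries, whereas the simulated noise was drawn for each gene apart. These runs therefore do not say whether changes like those of the members would be called. Libraries of a group were not duplicates (chi-square per gene 3.52 to 9.73). As alternatives, the pseudocount was set to 0.1, the filter was dropped or raised to 5, libraries were median-centred or quantile-normalized, eBayes was run without its trend, the replicate number was added as a block, voom was run on recovered fragments, and each library was left out. Lists are described by counts and medians, without a test of the list.

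The members and lists were chosen with earlier results of these data known. Members were named by role, with values in every library for up to 3 members per role by log2 fold change, and up to 3 genes per pathway list by statistic besides ligands, receptors, Stat2, Irf9 and Irf7. A gene under this rule is not reported here. Other values were added where a sentence turns on them. Sequences are from RefSeq (GRCm38.p6). Python 3.11.15, NumPy 2.4.6, pandas 2.3.3 and Matplotlib 3.10.9 were used.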

Additional observations from a re-analysis of the deposited data

How the results depend on the processing

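The log2 fold change stayed above 0 for all members tested under every alternative run, except without ZA replicate 3, where Phf11d had -0.03 and Cxcl10 -0.04. Over the libraries left out in turn Phf11d ranged from -0.03 to 0.35 and Cxcl10 from -0.04 to 0.24. The median log2 fold change lay between 0.20 and 0.23 under the other scalings, pseudocount, prior, filters and voom. Leaving out 1 library in turn gave medians of 0.09 to 0.34, 0 to 35 members with an unadjusted p under 0.05, 0 to 35 members whose groups did not overlap, 35 to 37 members above 0, and 0 members called, against 0.21, 1, 0, 37 and 0 with all libraries. The highest counts were those without ZA 1 (35 and 35) and Ctrl 3 (9 and 8), without any other library 0 members had an unadjusted p under 0.05, and the 35 above 0 and the median of 0.09 were those without ZA 3. With no filter 0 members had an unadjusted p under 0.05, with a mean FPKM of at least 5 there were 3 of 31 members tested, and with voom 16. The pathway lists had 0 genes called in the main fit, beside 0.204% of all genes tested with ZA higher and 0.163% with ZA lower. They had 1 gene called with a mean FPKM of at least 5 and 2 with voom. The shares of all genes called under these alternatives are not given here.

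With the replicate number as a replicate block in limma, 32 members had an unadjusted p under 0.05 (9.23% of all genes tested with ZA higher). With Benjamini-Hochberg adjustment 2 members had an adjusted p under 0.05 in limma, Ifit2 (0.0388) and Ifit3 (0.0343). Of all genes tested, 0.418% passed it with ZA higher. In the pathway lists, which held 5, 11, 17, 12, 59, 10 and 15 genes tested, 7 genes were called in this fit. The share of all genes called in either direction is not given here. The labels do not say that equal numbers share a culture, so the numbers were not taken as pairs in the main fit. Over 9800 genes the deviations of equally numbered libraries correlated at 0.284, 0.0393 and 0.28. Those of unequally numbered libraries correlated at between -0.297 and 0.0334. Whether equal numbers share a culture was not tested.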
